A study of Mus musculus with 12 samples.

Results

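The MAP kinase feedback genes are a set of 10 genes that dampen or transmit the signal from receptor tyrosine kinases through Ras to the kinase ERK: the dual-specificity phosphatases Dusp4, Dusp5 and Dusp6, the Sprouty genes Spry1, Spry2 and Spry4, the Sprouty-related genes Spred1 and Spred2, and the ETS transcription factors Etv4 and Etv5. They were chosen by gene symbol, from array probesets annotated to 1 of these symbols and no other. Of the 10 genes, 9 were measured, with 87 probesets, among 15025 genes tested. Dusp5 has no such probeset in the annotation and was not analysed here. The tumours were grown from 4 related mouse mammary carcinoma lines, 4T1, 4T07, 168FARN and 67NR, with 3 arrays per line. The hosts were BALB/c females, 3 months old, which received cells of a line in the mammary fat pad and no further treatment, and primary tumours were removed when their group averaged 1 to 2 cm. As background, 4T1 is known to metastasize fully, 4T07 to reach the lung without growing visible nodules, 168FARN to reach lymph nodes, and 67NR to stay at the site. Every kind of spread is represented by a single line, and host cells of the mouse are part of each tumour, so line, spread and tumour composition cannot be told apart. Nothing in the labels says that the 3 samples of a line came from separate animals, so the p-values rest on a sample-to-sample spread that could be technical.

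ERK carries growth signals from receptors at the cell surface to the nucleus. Active ERK switches on genes whose products shut the pathway down again: Dusp proteins remove the activating phosphates from ERK and related kinases, and Sprouty and Spred proteins act upstream, between the receptor, Ras and Raf. Etv4 and Etv5 are transcription factors induced by the same signal, with roles in branching epithelia such as the mammary gland. Because these genes rise with ERK activity in many cell types, their RNA is often read as a record of pathway output, although each also answers to other signals.

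A gene level is the median of the log2 signals of its probesets on an array. Array medians over all probesets lay between 7.21 and 7.57. Olfactory receptor genes, which tumours should not express, had a 95th percentile of 5.08, used here as the scale of background, and all 9 measured genes lay above it on every array. Arrays are named by their replicate number, and means are given ± SD with n = 3 arrays per line. Levels of 10 epithelial markers averaged 8.77 to 9.21 on 4T1 arrays and 8.04 to 9.55 on 4T07 arrays. They averaged 6.73 to 6.83 on 168FARN arrays and 5.75 to 6.43 on 67NR arrays. The splicing regulator Esrp1 was in the background range in 168FARN and 67NR, and Grhl2 in 168FARN only. The markers did not all move alike. The keratin gene Krt8 lay at 11.34 to 11.53 in 168FARN, at 11.91 to 12.25 in 4T1 and at 6.07 to 7.26 in 67NR. Skeletal muscle markers were high on arrays 2 and 3 of 168FARN (mean of 11 markers 8.22 and 9.17, against 5.63 on array 1 and 5.32 to 6.38 in the other lines), so each difference that involves 168FARN was also computed with array 1 as the only array of that line.

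The feedback genes did not move as a block. Dusp4, Dusp6, Spry2 and Etv4 were lowest in 168FARN tumours, Spry1 was high in 4T1 and 4T07 and low in 168FARN and 67NR, and Spry4 was lowest in 67NR. Spred2 differed by a smaller amount, and Spred1 and Etv5 did not pass the test. By limma's moderated F-test over the 4 lines, 7 of the 9 measured genes had an adjusted p under 0.05, where 42.0% of all genes did. The range between the highest and the lowest line mean had a median of 1.00 on the log2 scale over the 9 genes and 0.56 over all genes. Each line enters 3 of the 6 pairs of lines, so the pairs that share a line are not independent.

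**Figure D1:**
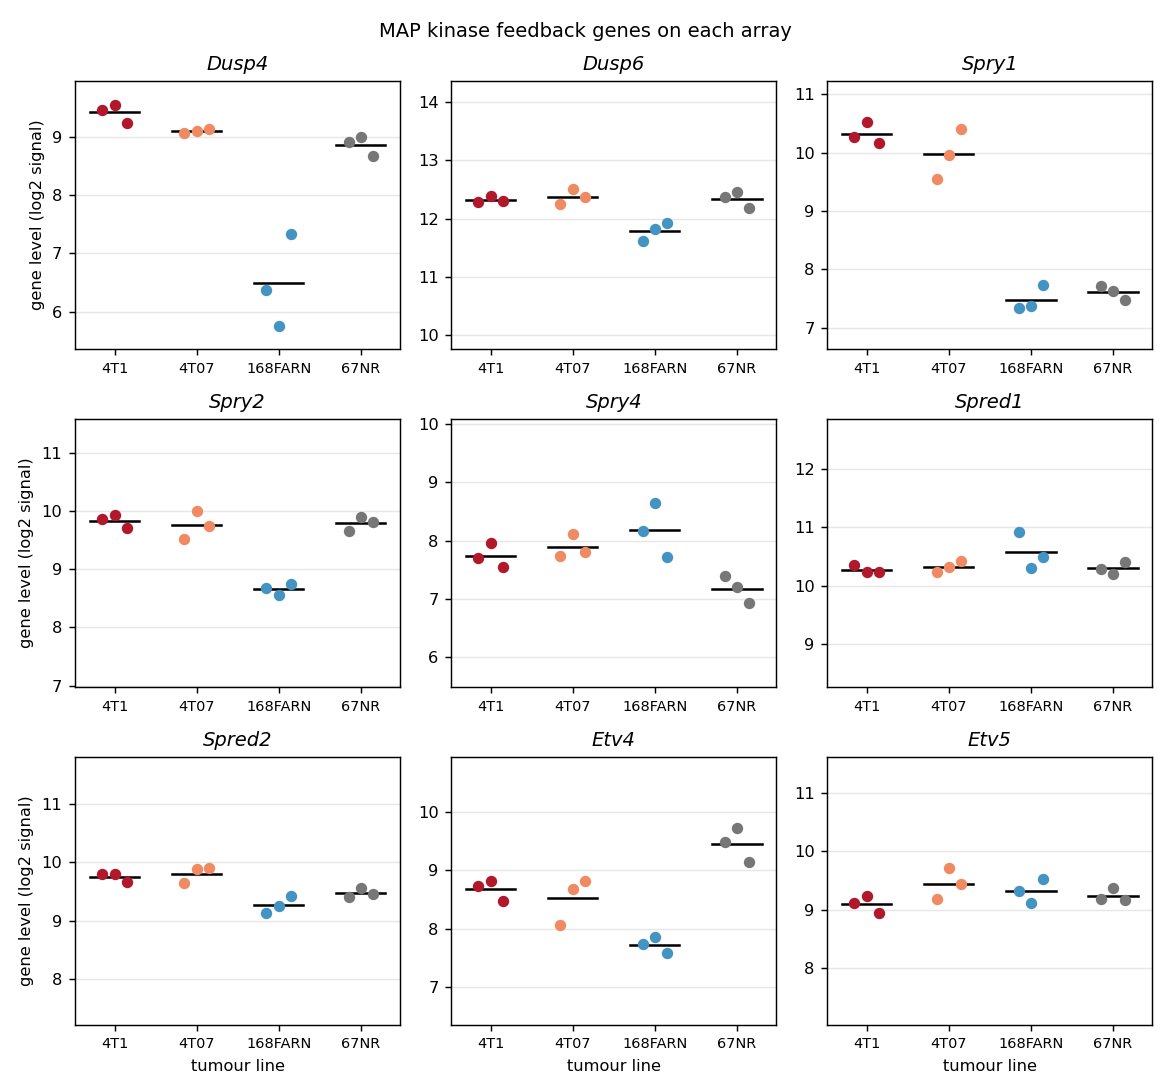
Levels (log2 signal, y axis) of the 9 measured feedback genes on the 12 arrays, by tumour line (x axis). Points are arrays 1 to 3 of a line from left to right, bars are line means, and every panel spans the same number of log2 units; Dusp4 in 168FARN lies between 5.76 and 7.33, below all arrays of the other lines, and Spry1 in 168FARN and 67NR between 7.34 and 7.73.

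Dusp4, a nuclear phosphatase of ERK and other MAP kinases, was strongly reduced in 168FARN tumours. Its levels were 9.46, 9.55 and 9.24 on the arrays of 4T1, 9.06, 9.10 and 9.14 in 4T07, 6.37, 5.76 and 7.33 in 168FARN, and 8.92, 9.01 and 8.67 in 67NR. The 168FARN arrays lay below all others and spread the most, with an SD of 0.79 against 0.04 to 0.17 elsewhere. In 168FARN the level was lower than in 67NR by a log2 difference of -2.38 (SE 0.29, limma adjusted p = 6.36e-05), a 5.20-fold difference. Relative to 168FARN it was 7.63-fold higher in 4T1 (adjusted p = 6.86e-06) and 6.12-fold higher in 4T07 (adjusted p = 2.23e-05). All 7 probesets of Dusp4 were lower in 168FARN than in 67NR, with differences of -3.06 to -1.91, and they come from the same RNA, so they are not replicates. With array 1 as the only 168FARN array, the difference from 67NR was -2.50 (adjusted p = 2.79e-05). Between 4T1, 4T07 and 67NR no difference of Dusp4 passed the test, although the 3 lines did not overlap. The nearest was 4T1 against 67NR, where the arrays did not overlap and the difference was 0.55 with a 95% interval of -0.07 to 1.18 (adjusted p = 0.204). That comparison passed without array 3 of 168FARN (adjusted p = 0.0401) and with 168FARN array 1 alone (adjusted p = 0.0192), as both change the shared estimate of the spread.

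Dusp6, the cytoplasmic phosphatase with a marked preference for ERK, was also lowest in 168FARN, in a narrower range. Its levels were 12.29, 12.39 and 12.29 in 4T1, 12.25, 12.50 and 12.36 in 4T07, 11.62, 11.83 and 11.93 in 168FARN, and 12.36, 12.46 and 12.19 in 67NR. The 3 arrays of 168FARN lay below all others, and the other lines overlapped. In 168FARN the level was 1.46-fold lower than in 67NR (-0.55, SE 0.14, limma adjusted p = 0.0121), a call lost without array 2 of 67NR (-0.48, adjusted p = 0.0576). It was 1.45-fold higher in 4T1 than in 168FARN (adjusted p = 0.0107) and 1.49-fold higher in 4T07 than in 168FARN (adjusted p = 0.00737). All 6 probesets ran the same way in these 3 comparisons. For 4T1 against 67NR the interval of the difference was -0.31 to 0.29, so a change of more than that size lies outside it.

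Spry2, a Sprouty protein that restrains signalling between receptor and Ras, was also lowest in 168FARN. Levels were 9.85, 9.92 and 9.71 in 4T1, 9.51, 9.99 and 9.74 in 4T07, 8.67, 8.56 and 8.75 in 168FARN, and 9.66, 9.89 and 9.81 in 67NR. The 168FARN arrays were tightly grouped and apart from the rest. The level was 2.18-fold lower in 168FARN than in 67NR (-1.12, SE 0.15, limma adjusted p = 0.000144). Against 168FARN it was 2.25-fold higher in 4T1 (adjusted p = 7.02e-05) and 2.13-fold higher in 4T07 (adjusted p = 0.000144). Only 3 probesets represent Spry2, all lower in 168FARN than in each other line. The differences among 4T1, 4T07 and 67NR were between -0.04 and 0.08.

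Spry1, its close relative and an inhibitor in the same step, followed another pattern. It reached 10.26, 10.52 and 10.16 in 4T1 and 9.55, 9.96 and 10.40 in 4T07, against 7.34, 7.37 and 7.73 in 168FARN and 7.71, 7.63 and 7.47 in 67NR. The 4T1 and 4T07 arrays all lay above those of 168FARN and 67NR. The level was 6.54-fold higher in 4T1 than in 67NR (2.71, SE 0.20, limma adjusted p = 8.44e-07) and 5.17-fold higher in 4T07 than in 67NR (adjusted p = 2.89e-06). Against 168FARN it was 7.12-fold higher in 4T1 (adjusted p = 4.43e-07) and 5.63-fold higher in 4T07 (adjusted p = 1.65e-06). Neither 4T1 against 4T07 (0.34, interval -0.10 to 0.78) nor 168FARN against 67NR (-0.12, interval -0.56 to 0.32) passed the test. Epithelial markers moved with it: 9 of 10 were higher in 4T1 than in 67NR and 8 of 10 in 4T07, with none lower. Fibroblast markers were also higher, 6 of 10 in 4T1 and 8 of 10 in 4T07, as were 5 and 7 of 8 neutrophil markers. Of 10 macrophage markers, 0 were higher and 3 lower in 4T1, and 0 higher and 4 lower in 4T07. T and NK cell markers were 0 higher and 3 lower in 4T1, and 2 higher and 2 lower in 4T07. Endothelial markers were 1 higher and 1 lower in 4T1, and 1 higher and 3 lower in 4T07. Against 168FARN, epithelial and neutrophil markers were again higher, while fibroblast markers went both ways (4 higher and 5 lower in 4T1, median -0.83, and 3 higher and 5 lower in 4T07, median -0.62). Their part in the level of Spry1 was not tested, and in bulk tumours fewer cells of a type and less RNA per cell cannot be told apart.

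Spry4, a Sprouty protein that acts on Ras and Raf activation, was lowest in 67NR and had its highest mean in 168FARN, where Spry2 was lowest. Its levels were 7.70, 7.97 and 7.55 in 4T1, 7.74, 8.12 and 7.81 in 4T07, 8.16, 8.65 and 7.72 in 168FARN, and 7.40, 7.21 and 6.93 in 67NR. All 9 arrays of the other lines lay above those of 67NR, while the 168FARN arrays overlapped 4T1 and 4T07. The level was 2.00-fold higher in 168FARN than in 67NR (1.00, SE 0.22, limma adjusted p = 0.00533) and 1.63-fold higher in 4T07 than in 67NR (adjusted p = 0.0354). The call in 4T07 was lost without array 2 or 3 of 67NR (adjusted p = 0.0809 and 0.128) and without array 2 or 3 of 4T07 (adjusted p = 0.12 and 0.0578). In 4T1 against 67NR the difference of 0.56 had an adjusted p = 0.0952, and it passed with the mean of the probesets (0.50, adjusted p = 0.0269), with the replicate number as a block (adjusted p = 0.0373) and with 168FARN array 1 alone (adjusted p = 0.0438). The 4T1 and 4T07 levels differed from 168FARN by -0.44 and -0.29 without passing the test. With the mean of the probesets in place of the median these became -0.53 (adjusted p = 0.0154) and -0.47 (adjusted p = 0.0329), and without array 3 of 168FARN the 4T1 difference was -0.67 (adjusted p = 0.0363).

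**Figure D2:**
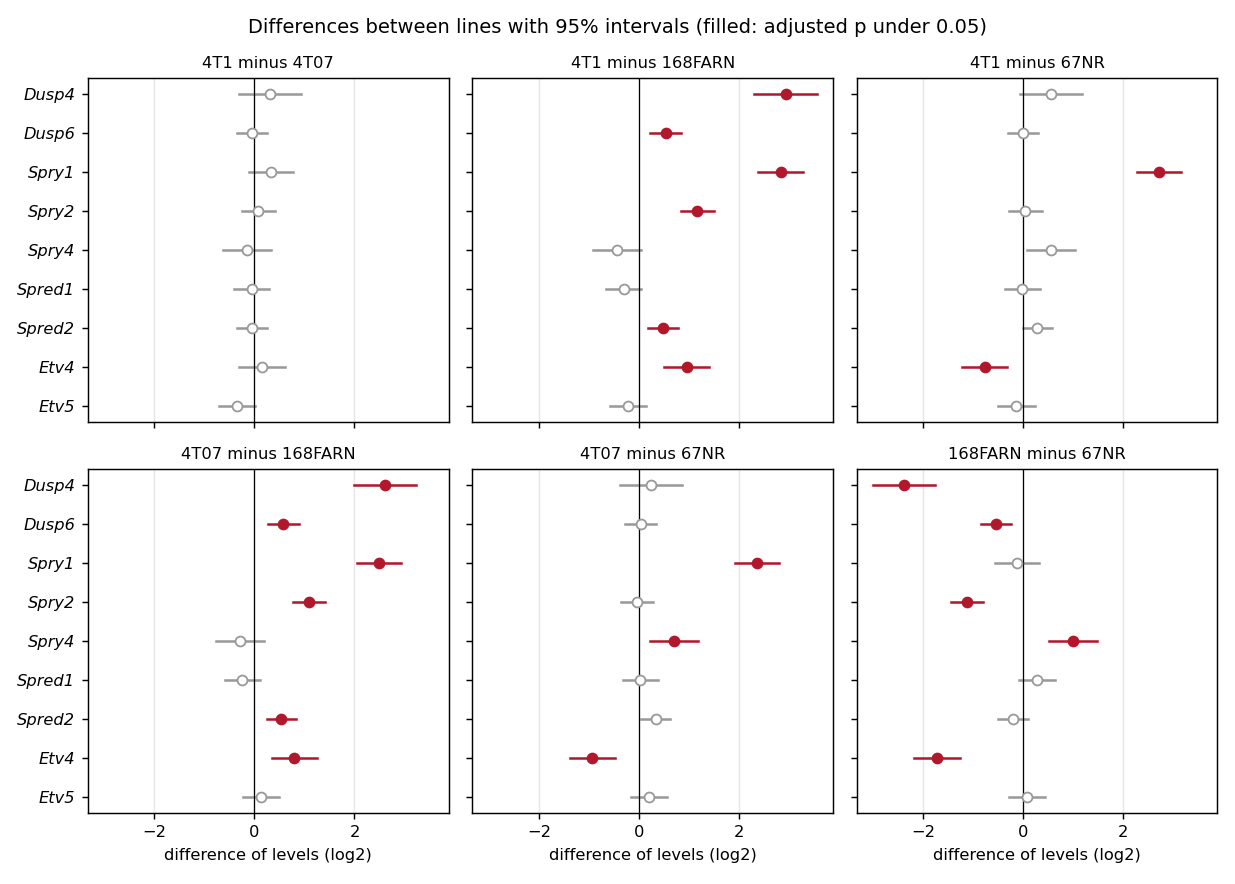
Difference of gene levels (log2, x axis) for each pair of lines, written as first line minus second, with 95% intervals from the limma fit of 12 arrays; filled red points have an adjusted p under 0.05. In the panels against 168FARN, 6 genes are higher in 4T1 and 6 in 4T07, while the panel of 4T1 against 4T07 has no filled point.

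The start regions of 3 of these genes are printed because Dusp6 and Spry2 were low in 168FARN alone, while Spry1 was low in both 168FARN and 67NR. The sequences are RefSeq's for assembly GRCm38.p6, 250 bases before and 50 after the annotated start, read 5′ to 3′ on the strand of the gene: chr10:99262981-99263280 (plus strand) for Dusp6, chr14:105896770-105897069 (minus strand) for Spry2 and chr3:37639697-37639996 (plus strand) for Spry1. Capitals mark matches, on either strand, to 4 sets of letters searched: CCGGAA for ETS factors, TGANTCA for AP-1, TGACGTCA for the cyclic AMP response element, and TNAATGNA for Capicua, a repressor that ERK inactivates and that is known to silence Etv4 and Etv5.
Dusp6: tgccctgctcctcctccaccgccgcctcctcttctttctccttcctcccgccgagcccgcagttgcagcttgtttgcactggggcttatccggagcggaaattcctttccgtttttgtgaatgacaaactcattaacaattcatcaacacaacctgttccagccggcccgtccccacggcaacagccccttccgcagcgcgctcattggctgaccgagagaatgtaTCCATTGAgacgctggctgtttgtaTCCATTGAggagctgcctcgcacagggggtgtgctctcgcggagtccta
Spry2: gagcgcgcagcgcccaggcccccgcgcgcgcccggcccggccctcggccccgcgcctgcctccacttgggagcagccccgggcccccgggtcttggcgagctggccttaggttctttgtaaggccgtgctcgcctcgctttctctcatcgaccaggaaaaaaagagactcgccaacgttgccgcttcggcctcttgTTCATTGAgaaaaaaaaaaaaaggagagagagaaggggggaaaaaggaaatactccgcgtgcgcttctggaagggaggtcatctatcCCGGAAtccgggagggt
Spry1: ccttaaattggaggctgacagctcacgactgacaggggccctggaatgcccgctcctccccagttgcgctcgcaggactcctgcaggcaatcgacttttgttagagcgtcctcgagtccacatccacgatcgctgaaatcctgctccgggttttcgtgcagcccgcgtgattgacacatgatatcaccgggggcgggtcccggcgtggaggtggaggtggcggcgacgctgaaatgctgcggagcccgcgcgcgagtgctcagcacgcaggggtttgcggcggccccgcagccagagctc
The region of Dusp6 holds 2 Capicua letter matches, both on the antisense strand, the first starting 24 bases before the gene start. That of Spry2 holds 1 Capicua match, 54 bases before the start, and 1 ETS match, and the 2 do not overlap. None of the letters searched occur in the Spry1 region printed, nor in the regions listed for Spred1, Spred2 and Etv5, the last with 2 starts. Among 32851 listed regions of this length, 11.7% held a Capicua match, 14.9% an ETS match, 7.81% an AP-1 match and 1.79% a cyclic AMP response element. A letter match shows neither binding nor regulation. Dusp4, Spry4 and Etv4 are not among the regions searched.

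Spred2, which blocks the activation of Raf by Ras, differed modestly. Levels were 9.80, 9.80 and 9.66 in 4T1, 9.65, 9.88 and 9.90 in 4T07, 9.13, 9.26 and 9.42 in 168FARN, and 9.41, 9.55 and 9.45 in 67NR. The 4T1 and 4T07 arrays lay above all arrays of 168FARN and 67NR, and those of 168FARN and 67NR overlapped. Against 168FARN it was higher by 0.49 in 4T1 (limma adjusted p = 0.0152) and by 0.54 in 4T07 (adjusted p = 0.00964). The call in 4T1 was lost without array 1 of 168FARN (adjusted p = 0.0571), array 1 of 4T1 (adjusted p = 0.057) or array 2 of 4T1 (adjusted p = 0.0541). Against 67NR the differences of 0.28 in 4T1 and 0.33 in 4T07 did not pass (adjusted p = 0.168 and 0.0976). After quantile normalization both passed (0.32, adjusted p = 0.045, and 0.37, adjusted p = 0.0217), and centring the arrays on their medians let 4T07 pass (0.32, adjusted p = 0.0445).

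Spred1, the other Sprouty-related inhibitor, whose protein brings neurofibromin to Ras, did not pass the test in any pair of lines with all arrays. Levels were 10.35, 10.23 and 10.24 in 4T1, 10.23, 10.32 and 10.43 in 4T07, 10.92, 10.30 and 10.49 in 168FARN, and 10.28, 10.20 and 10.41 in 67NR. Every pair of lines overlapped, and the F-test gave an adjusted p = 0.377. All 14 probesets were higher in 168FARN than in 67NR, by 0.03 to 0.45. In 4T1 and in 4T07, 12 of the 14 were lower than in 168FARN. Probesets of a gene come from the same RNA, so they are not replicates. The largest difference was -0.30 in 4T1 against 168FARN, with an interval of -0.65 to 0.05 (limma adjusted p = 0.19). With array 1 as the only 168FARN array, the one with the highest level, it was -0.65 (adjusted p = 0.039).

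Etv4, an ETS factor of the PEA3 group, separated the lines into 3 levels. They were 8.74, 8.82 and 8.47 in 4T1, 8.06, 8.68 and 8.82 in 4T07, 7.73, 7.86 and 7.58 in 168FARN, and 9.49, 9.73 and 9.14 in 67NR. The 67NR arrays lay above all others, the 168FARN arrays below all others, and 4T1 and 4T07 overlapped between them. In 168FARN it was 3.32-fold lower than in 67NR (-1.73, SE 0.21, limma adjusted p = 6.77e-05). It was lower than in 67NR by -0.78 in 4T1 (adjusted p = 0.0175) and by -0.93 in 4T07 (adjusted p = 0.00571). The 4T1 call was lost without array 1 or 2 of 67NR (adjusted p = 0.0537 and 0.0829) or array 3 of 4T1 (adjusted p = 0.0766). Against 168FARN it was 1.94-fold higher in 4T1 (adjusted p = 0.00372) and 1.74-fold higher in 4T07 (adjusted p = 0.0121). These 2 calls were lost with 168FARN array 1 alone, at differences of 0.94 and 0.79 (adjusted p = 0.0644 and 0.13), where the spread of 168FARN was taken to equal that of the other lines. All 13 probesets of Etv4 followed this order in the comparisons with 67NR and with 168FARN.

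Etv5, the partner of Etv4 in the PEA3 group, did not share this pattern. Its levels were 9.12, 9.24 and 8.94 in 4T1, 9.19, 9.71 and 9.44 in 4T07, 9.33, 9.11 and 9.52 in 168FARN, and 9.18, 9.38 and 9.16 in 67NR. All pairs of lines overlapped (F-test adjusted p = 0.37 by limma). Its interval for 168FARN against 67NR was -0.28 to 0.44, which leaves out the difference of -1.73 measured for Etv4. Among its 17 probesets, 8 were higher and 9 lower in 168FARN than in 67NR.

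By pairs of lines, the measured feedback genes gave the following counts at an adjusted p under 0.05. In 4T1 against 168FARN 6 of 9 were higher and 0 lower, where 11.9% of all genes were higher and 19.3% lower, 31.2% in all. In 4T07 against 168FARN 6 were higher and 0 lower (all genes, 11.4% and 16.8%, together 28.3%). In 168FARN against 67NR 1 was higher and 4 lower (all genes, 13.5% and 11.2%, together 24.7%). In 4T07 against 67NR 2 were higher and 1 lower (all genes, 11.0% and 12.7%, together 23.7%), and in 4T1 against 67NR 1 was higher and 1 lower (all genes, 9.38% and 13.0%, together 22.3%). Between 4T1 and 4T07 no measured gene passed limma's test, where 2.38% of all genes did, 0.552% higher and 1.82% lower in 4T1. In that pair 0 of the 9 genes had an unadjusted p under 0.05. The median difference over the 9 genes was 0.53 in 4T1 and 0.58 in 4T07 against 168FARN, and -0.20 in 168FARN against 67NR, beside medians over all genes of -0.08, -0.09 and 0.04. With 168FARN array 1 alone, the differences of the 6 called genes stayed positive, at 0.62 or more in 4T1 and 0.68 or more in 4T07. Spred1, not called with all arrays, went the opposite way, by -0.65 in 4T1 and -0.60 in 4T07 against 168FARN.

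Markers of other cells also differed in 168FARN. Relative to 67NR, 7 of 10 endothelial, 5 of 10 macrophage and 5 of 10 T and NK cell markers were lower, with none higher. The mean level of the endothelial markers was 7.61 to 7.87 on 168FARN arrays and 8.28 to 8.56 on 67NR arrays, and none of the 10 was in the background range in either line. That of the macrophage markers was 9.70 to 9.91 in 168FARN and 10.47 to 10.52 in 67NR, and that of the T and NK cell markers 6.21 to 6.42 in 168FARN and 6.93 to 7.37 in 67NR, with Cd3d in the background range in 168FARN. In 4T1 against 168FARN, 7 of 10 epithelial, 5 of 8 neutrophil, 3 of 10 T and NK cell and 3 of 10 endothelial markers were higher and none lower, 6 of 10 macrophage markers were higher and 1 lower, 4 of 10 fibroblast markers were higher and 5 lower, and 3 of 11 muscle markers were lower. In 4T07 against 168FARN, 7 of 10 epithelial, 7 of 8 neutrophil, 7 of 10 T and NK cell and 1 of 10 endothelial markers were higher and none lower, 2 of 10 macrophage markers were higher and 1 lower, 3 of 10 fibroblast markers were higher and 5 lower, and 3 of 11 muscle markers were lower. Against 67NR, 2 epithelial markers were higher and 1 lower in 168FARN, and of 8 neutrophil markers 0 were higher and 0 lower. Fibroblast markers ran the other way, 7 of 10 higher and none lower, with mean levels of 10.23 to 10.50 in 168FARN and 8.60 to 9.14 in 67NR. The part of these cells in the levels of the feedback genes was not tested.

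The exon array allowed each probeset to be compared with the other probesets of its gene. In limma's diffSplice, 8 of the measured feedback genes entered with 82 probesets, and Spry2 was left out with too few probesets. Of 492 tests of a probeset in a pair of lines, 11 passed, with the threshold of 0.05 for the adjusted p and 1 log2 unit for the change relative to the gene, beside 0.720% of all such tests. By pair these were 3 in 4T1 against 168FARN (1.26% of all probesets tested), 2 in 4T1 against 67NR (0.736%), 3 in 4T07 against 168FARN (0.761%), 2 in 4T07 against 67NR (0.672%), 1 in 168FARN against 67NR (0.743%) and 0 in 4T1 against 4T07 (0.149%). They fell on 3 probesets. With a splicing index 7 calls were left and with probesets above the 50th percentile 4: the 4 calls of Spry1 probeset 5049706 held in both, 3 of the 4 of Spry1 probeset 5017855 held with the splicing index, and the 3 of Spry4 probeset 4434319 in neither. The last 2 probesets are too dim to enter the test above the 50th percentile. Spry1 probeset 5049706 stood at 8.52 in 4T1, 8.00 in 4T07, 8.02 in 168FARN and 7.93 in 67NR, close to flat while the gene rose. Its change relative to the rest of the gene was -2.03 in 4T1 (limma adjusted p = 1.1e-06) and -2.13 in 4T07 (adjusted p = 2.69e-07) against 67NR. Probeset 5017855 of Spry1 also rose less than the gene, with relative changes of -1.53 in 4T1 (adjusted p = 0.000581) and -1.41 in 4T07 (adjusted p = 0.0022) against 67NR. Spry4 probeset 4434319 stood at 6.75 in 4T1, 6.61 in 4T07, 8.21 in 168FARN and 5.89 in 67NR. It differed by 2.31 between 168FARN and 67NR, while the other 4 probesets of Spry4 differed by less, and its relative change was 1.60 (adjusted p = 0.00122). No probeset of Dusp4, Dusp6, Spred1, Spred2, Etv4 or Etv5 was called in any pair of lines. Which exon or transcript end these probesets cover was not analysed here.

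**Figure D3:**
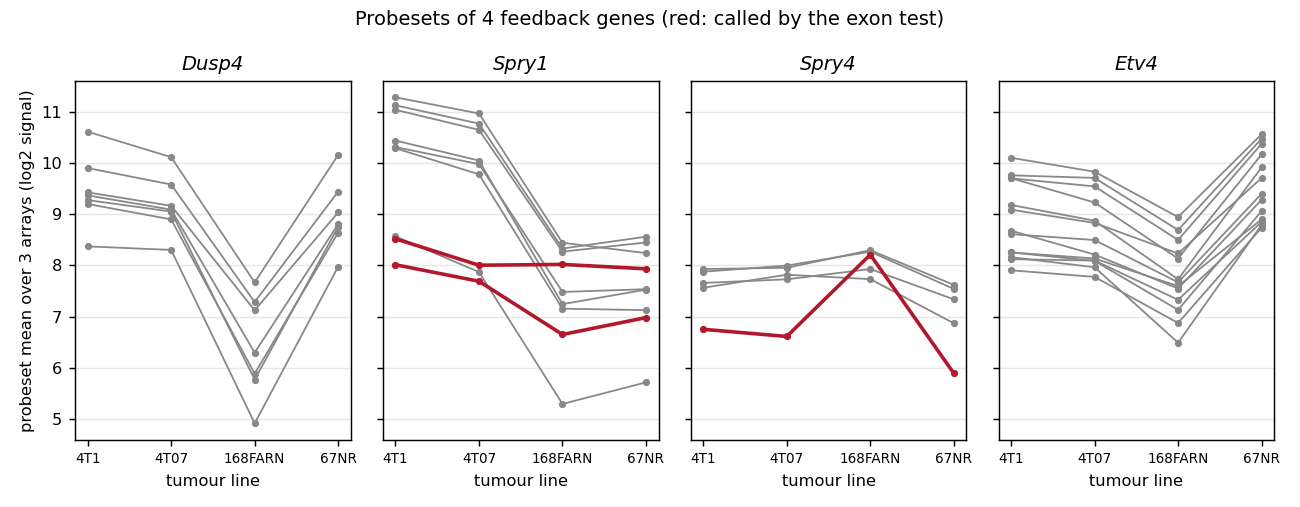
Mean log2 signal over 3 arrays (y axis) of each probeset of Dusp4, Spry1, Spry4 and Etv4 in the 4 lines (x axis); each line joins the means of 1 probeset, and red marks a probeset called by the exon test in at least 1 pair of lines. The Dusp4 and Etv4 probesets run in parallel, Spry1 probeset 5049706 is nearly flat, and Spry4 probeset 4434319 has its peak of 8.21 in 168FARN.

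Some other genes that ERK signalling is known to induce were lower in 168FARN than in 67NR, and 9 of the 18 measured did not pass the test. Of 18 measured of 20 listed, 8 were lower and 1 was higher (all genes, 11.2% lower and 13.5% higher). The median difference was -0.60, beside 0.04 over all genes. The list was chosen with earlier results of these data known, so its counts here and below are not an independent check. The receptor Epha2 stood at 8.62 ± 0.20 in 168FARN and 9.98 ± 0.19 in 67NR (-1.36, limma adjusted p = 3.48e-05). The small Maf factor gene Maff differed by -1.12 (adjusted p = 0.000161), the cytokine gene Lif by -1.07 (adjusted p = 0.00231) and the growth regulator Myc by -0.91 (adjusted p = 0.00115). The gene that was higher, Etv1, is named after its value was seen and belongs to the PEA3 group with Etv4 and Etv5. It stood at 10.97 ± 0.14 in 168FARN and 10.38 ± 0.04 in 67NR (0.59, adjusted p = 0.00794). The count of 8 was 5 without array 2 of 67NR, and 5 with 168FARN array 1 alone.

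Many genes of the same list were higher in 4T1 and 4T07 than in 168FARN, comparisons that share the 168FARN arrays with the one above. In 4T1, 10 of 18 were higher (11.9% of all genes) and 1 lower (19.3%), with a median of 0.46 beside -0.08 over all genes. In 4T07, 9 were higher (11.4%) and 2 lower (16.8%), with a median of 0.61 beside -0.09. Epha2 was higher by 1.49 in 4T1 and 1.15 in 4T07 (limma adjusted p = 9.84e-06 and 0.000102). Egr2, an early growth response factor, was higher by 1.34 in 4T07 (adjusted p = 0.00013). With 168FARN array 1 alone the counts of higher genes were 6 in 4T1 and 5 in 4T07. Against 67NR the list moved both ways. In 4T1 1 was higher and 3 lower (all genes, 9.38% and 13.0%), and in 4T07 3 were higher and 2 lower (all genes, 11.0% and 12.7%). Among those, Junb, a subunit of AP-1, was higher by 1.00 in 4T1 (adjusted p = 0.000334), and Elk3, an ETS repressor, was lower by a difference of -0.93 in 4T07 (adjusted p = 0.000257).

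**Figure D4:**
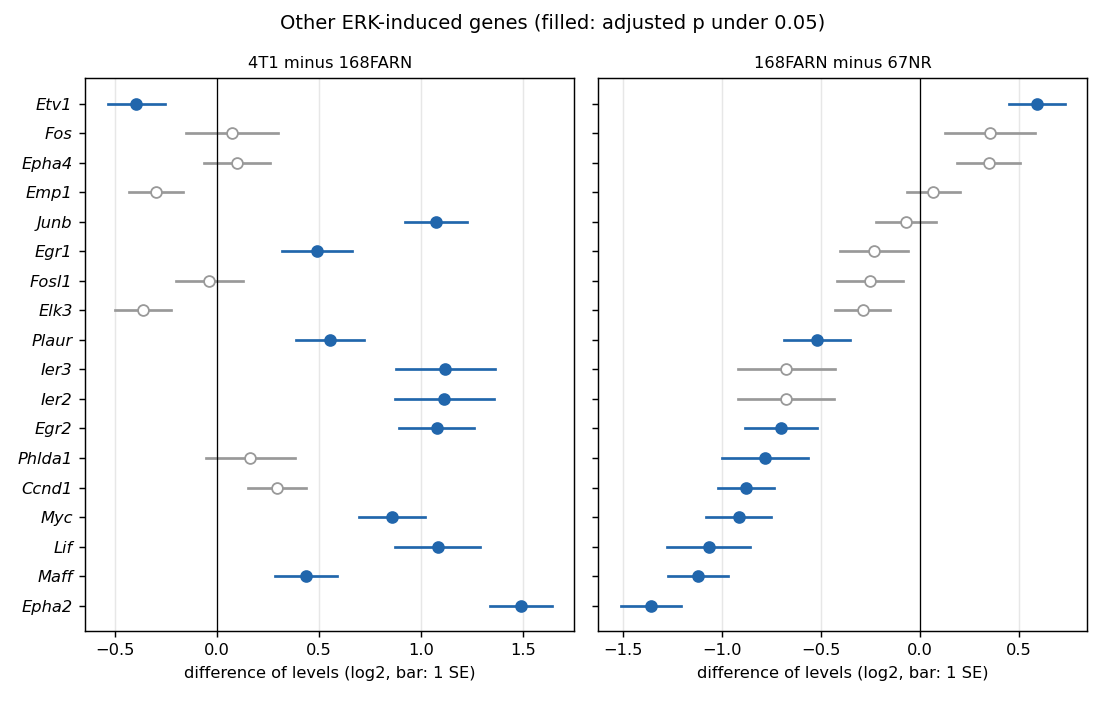
Difference of gene levels (log2, x axis) of 18 other ERK-induced genes in 4T1 minus 168FARN and in 168FARN minus 67NR, with bars of 1 SE from limma; filled points have an adjusted p under 0.05. Epha2 is at 1.49 and -1.36, and the panels share the 168FARN arrays, so a point on opposite sides is in part the same measurement.

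Of genes of the cascade itself, the adaptors, Ras, Raf, MEK and ERK genes, 14 of 19 listed were measured. In this list 0 were higher and 3 lower in 168FARN than in 67NR (all genes, 13.5% and 11.2%). These were Ptpn11, the phosphatase SHP2 needed for Ras activation (8.98 ± 0.06 in 168FARN and 9.53 ± 0.04 in 67NR, limma adjusted p = 0.00526), the scaffold Ksr1 (-0.67, adjusted p = 0.0135) and Araf (-0.44, adjusted p = 0.035). Ptpn11 was also higher in 4T1 than in 168FARN (0.59, adjusted p = 0.00262) and in 4T07 (0.50, adjusted p = 0.00824). Ksr1 and Araf did not pass in 4T1 or 4T07 against 168FARN. Mean levels of Ksr1 were 7.73 in 4T1, 7.61 in 4T07, 7.54 in 168FARN and 8.21 in 67NR. Those of Araf were 8.88, 8.87, 8.82 and 9.26 in the same order. In 4T07 against 67NR 1 was higher and 4 lower (all genes, 11.0% and 12.7%). Map2k2, a MEK gene, stood at 9.46 ± 0.36 in 4T07 and 10.47 ± 0.22 in 67NR (adjusted p = 0.00217). The gene that was higher is the other MEK gene, Map2k1 (0.52, adjusted p = 0.0172), named after its value was seen. Hras stood at 8.93 ± 0.36 in 4T07 and 9.93 ± 0.25 in 67NR (adjusted p = 0.00203). Hras was also lower in 4T1 (-0.77, adjusted p = 0.0113).

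Among genes that turn Ras off by stimulating its GTPase, 6 of 9 listed were measured. Rasa3 was lower in 4T07 than in 168FARN (9.67 ± 0.18 and 10.67 ± 0.21, limma adjusted p = 0.000703) and than in 67NR (-0.61, adjusted p = 0.019). It was also lower in 4T1 than in 168FARN (-0.71, adjusted p = 0.00643). Rasa1 was lower in 168FARN than in 67NR (9.40 ± 0.32 and 10.20 ± 0.08, adjusted p = 0.0484). Rasa2 was higher in 4T1 than in 168FARN (0.98, adjusted p = 0.00366) and than in 67NR (0.70, adjusted p = 0.0327). Rasa1 was higher in 4T1 than in 168FARN (0.77, adjusted p = 0.0468). In that pair 2 of the 6 were thus higher and 1 lower (all genes, 11.9% and 19.3%).

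Feedback genes outside the 10 moved in both directions. Of 17 measured of 18 listed, 3 were higher and 4 lower in 168FARN than in 67NR (all genes, 13.5% and 11.2%). Dusp9, another ERK phosphatase, stood at 7.06 ± 0.46 in 168FARN and 9.06 ± 0.10 in 67NR (-1.99, limma adjusted p = 1.78e-05). Errfi1, an inhibitor of the EGF receptor, was higher in 168FARN (1.01, adjusted p = 0.000598). Against 67NR 3 were higher and 6 lower in 4T1 (all genes, 9.38% and 13.0%). The lower ones were led by the stress kinase phosphatase Dusp10 (8.19 ± 0.04 in 4T1 and 9.86 ± 0.21 in 67NR, adjusted p = 0.000178) and Dusp1 (-1.34, adjusted p = 0.00655). In 4T07 4 were higher and 7 lower than in 67NR (all genes, 11.0% and 12.7%), and Errfi1 was higher by 1.59 (adjusted p = 1.25e-05). Errfi1 was also the gene of this list that differed between 4T1 and 4T07 (10.23 ± 0.17 and 11.14 ± 0.22, adjusted p = 0.0094).

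A list of further ETS factors leaves out Etv1, which was higher in 168FARN than in 67NR, and Elk3. Both stand among the ERK-induced genes above. Of 15 measured of 16 listed, counting the repressor Cic, 0 were higher and 4 lower in 168FARN than in 67NR. Of all genes, 13.5% were higher and 11.2% lower, together 24.7%. Ets2 stood at 8.21 ± 0.16 in 168FARN and 9.21 ± 0.15 in 67NR (limma adjusted p = 0.00108), and Erg differed by -0.74 (adjusted p = 0.0241), Ets1 by -0.72 (adjusted p = 0.00166) and Fli1 by -0.68 (adjusted p = 0.0049). Erg and Fli1 are known from endothelial and blood cells. In 168FARN against 67NR, 7 of 10 endothelial, 5 of 10 macrophage and 5 of 10 T and NK cell markers were lower. Of 8 neutrophil markers, 0 were higher and 0 lower. The part of these cells in the levels of Erg and Fli1 was not tested. In 4T1 5 were higher than in 168FARN and 0 lower (all genes, 11.9% and 19.3%). In 4T07 6 were higher than in 168FARN and 0 lower (all genes, 11.4% and 16.8%). Ets2 stood at 9.83 ± 0.11 in 4T1 and 8.21 ± 0.16 in 168FARN (adjusted p = 1.64e-05).

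Upstream receptors and ligands differed among the lines with large changes in each direction. Of 22 receptor tyrosine kinases measured of 23 listed, 4 were higher and 5 lower in 168FARN than in 67NR (all genes, 13.5% and 11.2%). The largest change was that of Pdgfra (1.44, limma adjusted p = 4.29e-05), which is also among the fibroblast markers. Fgfr2 was higher in 4T1 than in 67NR (10.04 ± 0.09 and 7.76 ± 0.18, adjusted p = 6.78e-06) and Fgfr1 lower (8.66 ± 0.20 and 10.67 ± 0.14, adjusted p = 7.71e-06). Of 23 ligands measured of 24 listed, 8 were higher and 7 lower in 168FARN than in 67NR (all genes, 13.5% and 11.2%). The fibroblast growth factors Fgf7 (9.38 ± 0.81 in 168FARN and 5.44 ± 0.75 in 67NR) and Fgf10 (9.27 ± 0.11 in 168FARN and 6.34 ± 0.28 in 67NR) were higher, with adjusted p = 9.04e-06 and 5.53e-08. Btc, a ligand of the EGF receptor, was in the background range in 168FARN (4.74 ± 0.47, against 8.43 ± 0.68 in 67NR, adjusted p = 8.59e-06). Tgfa, another such ligand, was higher in 4T1 than in 168FARN (9.01 ± 0.10 and 5.69 ± 0.22, adjusted p = 3.2e-08) and than in 67NR (3.21, adjusted p = 5.62e-08).

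Genes most like a feedback gene were found as those with the smallest root mean square difference of levels, each centred on its own mean over the 12 arrays, among 3240 other genes with line means at least 1 log2 unit apart. For Etv4 these were Rangrf (0.19), Gas7 (0.20) and Frmd4a (0.24), beside a spread of Etv4 about its own mean of 0.65. For Spry4 they were Itm2c (0.19), Rwdd2b (0.19) and Tusc3 (0.19), beside a spread of 0.44. For Dusp6 they were Hspb2 (0.20), Snx18 (0.21) and Fgd1 (0.21), and for Etv5 Nedd4l (0.33), Trib3 (0.34) and Ift172 (0.35). The line means of Dusp6 span 0.58 and those of Etv5 0.35, less than the 1 log2 unit asked of the other genes, so genes as flat as these were not searched and the distances say nothing of how alike the nearest genes are. Between the feedback genes themselves the closest pair was Dusp6 and Spred2 (0.15). The line means of Spred2 span 0.54, and 2 genes that vary little are close by this measure, so the distance need not mean a shared pattern.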

How the data were processed

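Signals of an Affymetrix mouse exon array were deposited as log2 values for every probeset on each of the arrays. The log2 scale was read from the values, and the authors' summarization, background correction and normalization are not given in the sources used here. Of 228090 probesets, 207232 have 1 gene symbol in the platform annotation, 3882 several and 16976 none, and only those with 1 symbol were used. Symbols were updated through RefSeq's gene table (GRCm38.p6). Gene levels are medians over probesets, computed where a gene had 3 or more (15025 genes). Levels of the 12 arrays were fitted in limma 3.58.1 (R 4.3.3, data.table version 1.17.8) with 1 mean per line, a moderated F-test and 6 pairs of lines, with Benjamini-Hochberg adjustment over all genes and a threshold of 0.05. The exon test used diffSplice on 110320 probesets of 7349 genes. The scripts were tested on simulated data. No 2 arrays held identical values. For arrays, the number of samples limits the precision. All feedback genes are described in full. At most the 4 called genes with the largest change in a comparison are named from each pathway list, apart from Etv1 and Map2k1. The genes and lists were chosen with earlier results of these data known. Alternatives were other summaries, filters, scalings, a replicate block and leaving out arrays.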

Additional observations from a re-analysis of the deposited data

How the results depend on the processing

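Of the 22 differences between lines called for the feedback genes, 16 were called under all 21 alternatives that were followed gene by gene. The other 6 were lost under at least 1, and none reversed. The fit of only the 2 lines compared was followed by its counts alone and is not among the 21. The calls lost and gained under these 21 are given beside each gene in the report, with the setting or the array left out that caused them. The number of genes called in 4T1 against 67NR was 2, and became 4 with 168FARN array 1 as the only array of that line and 4 when only the 2 lines were fitted. Leaving out 1 array at a time gave 5 to 7 genes by the F-test, 0 to 0 in 4T1 against 4T07, 5 to 7 in 4T1 against 168FARN, 1 to 3 in 4T1 against 67NR, 6 to 6 in 4T07 against 168FARN, 2 to 3 in 4T07 against 67NR and 4 to 5 in 168FARN against 67NR. The 11 calls of the exon test became 7 with a splicing index and 4 with probesets above the 50th percentile, and 8 to 11 without 1 array. With the replicate number as a block, 7 genes passed the F-test, and 0, 6, 3, 6, 3 and 5 genes passed in 4T1 against 4T07, 4T1 against 168FARN, 4T1 against 67NR, 4T07 against 168FARN, 4T07 against 67NR and 168FARN against 67NR, with 11 exon calls. The labels do not say what same-numbered samples share. Over 18 pairs of them, deviations from the line means correlated at -0.09 to 0.19, with 3 pairs over 0.1. No correlations of differently numbered samples are given to set beside these. The 3 arrays per line limit how small a difference can be called.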
